A study of Mus musculus with 6 samples.

Results

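A set of 49 genes that encode kinetochore and spindle checkpoint proteins was followed in D10 T cells after cold acclimation. The members were given as a list of symbols, each symbol matched 1 row of the deposited expression table, and the 49 rows stood among 41079 listed genes. D10 is described as a cloned mouse helper T cell line that recognizes chicken conalbumin, and T cells of other origin were not sampled by design. The libraries were not uniform in T cell markers, and Cd4 differed between replicate numbers, as given below. The cold-acclimated group held 3 libraries of cells kept for 24 h at 26°C, and the non-acclimated group held 3 libraries of cells cultured at 37°C. Neither group had a genetic change or an agent added for the comparison, and the methods of the study name IL-2 in the culture medium of D10 cells. Poly(A)+ RNA was sequenced, and levels are given as TPM, a measure of transcript abundance that divides reads by gene length and gives every library the same total. RNA was extracted in batches that the labels call old and new, and no library is assigned to either, so the p-values measure the spread between these libraries.

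The kinetochore is the protein assembly that joins each chromosome to the microtubules of the mitotic spindle. Its inner part, the constitutive centromere-associated network (CCAN), sits on nucleosomes that carry the histone variant CENP-A. Its outer part, the KMN network of the KNL1, MIS12 and NDC80 complexes, binds the microtubules. A kinetochore without microtubules recruits the spindle checkpoint proteins, which hold the anaphase-promoting complex inactive, and Aurora B with its partners in the chromosomal passenger complex releases faulty attachments. Many of these genes are transcribed mainly in G2 and mitosis, and in dividing cells their promoters are known to be controlled through CCAAT boxes and the cell cycle genes homology region (CHR). In bulk RNA, a smaller share of cells that hold a transcript and less of that transcript per cell cannot be told apart.

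Promoter sequences are shown for the members with the smallest p-values that had a RefSeq entry, Mis12, Knl1, Ttk, Cenpu and Bub1, and for Zwint, the member with the highest log2 fold change. Each run holds 120 bases before and 30 bases after the start on GRCm38.p6, written 5′ to 3′ on the strand of the gene. Capitals mark the CCAAT box (CCAAT), the CHR (TTTGAA or TTCGAA) and E2F letters (TTCCCGC or TTGGCGC) on either strand, where matches were allowed to overlap.
Mis12 (chr11:71019491-71019640, + strand): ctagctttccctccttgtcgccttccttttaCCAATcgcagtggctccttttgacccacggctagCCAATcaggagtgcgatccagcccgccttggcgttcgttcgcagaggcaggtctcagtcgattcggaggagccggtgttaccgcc
Knl1 (chr2:119046999-119047148, + strand): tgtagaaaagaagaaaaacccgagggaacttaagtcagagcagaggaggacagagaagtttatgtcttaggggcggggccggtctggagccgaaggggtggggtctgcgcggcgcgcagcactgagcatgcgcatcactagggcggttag
Ttk (chr9:83834569-83834718, + strand): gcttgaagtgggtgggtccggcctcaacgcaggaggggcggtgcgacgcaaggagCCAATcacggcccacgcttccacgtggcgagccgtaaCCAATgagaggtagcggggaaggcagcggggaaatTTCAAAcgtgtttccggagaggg
Cenpu (chr8:46551949-46552098, + strand): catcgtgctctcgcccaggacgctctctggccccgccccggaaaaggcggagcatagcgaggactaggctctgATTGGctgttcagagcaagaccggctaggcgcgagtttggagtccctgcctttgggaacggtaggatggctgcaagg
Bub1 (chr2:127831830-127831979, - strand): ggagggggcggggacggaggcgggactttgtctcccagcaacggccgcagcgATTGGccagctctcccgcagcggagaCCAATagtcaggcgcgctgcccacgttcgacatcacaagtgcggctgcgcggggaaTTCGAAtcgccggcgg
Zwint (chr10:72654726-72654875, + strand): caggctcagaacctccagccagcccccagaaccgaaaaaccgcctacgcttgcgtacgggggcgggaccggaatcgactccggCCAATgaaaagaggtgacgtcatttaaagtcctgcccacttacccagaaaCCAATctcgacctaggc
Ttk and Bub1 held a CHR close to the start. The CCAAT letters occurred 2 times in the windows of Mis12, Ttk, Bub1 and Zwint and 1 time in that of Cenpu, whereas none of the searched letters occurred in that of Knl1. In the full windows of 250 bases before and 50 after the start, 43 of the 49 members had an entry, with 48 promoters in all. The CHR was in 24 of them, or 50%, against 19.2% of all 32851 promoters, the CCAAT box in 34, or 70.8%, against 37.4%, and the E2F letters in 14, or 29.2%, against 6.81%. The comparison was with all listed promoters, whether or not their genes passed the expression filter that all 49 members passed. The part of this filter in the shares was not tested. A match is a description of the letters and not of binding.

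The libraries held between 16899628 and 31290854 reads, recovered from the steps of the TPM values. The replicate 3 libraries stood apart in both conditions. Cd4, which encodes the co-receptor that defines helper T cells, was at 310 TPM in replicate 3 at 37°C and at 328 TPM in replicate 3 at 26°C, but between 0.0351 and 1.30 TPM in the other 4 libraries. Thy1 was listed at 0 in every library, whereas Cd3e, Cd3g, Lck and Gata3 were above 200 TPM in each. The replicate 2 libraries were the lowest for Cd3d and Cd28. Cd3d was at 64.3 TPM (37°C) and 78.6 TPM (26°C) in replicate 2 and between 240 and 332 TPM elsewhere. Cd28 was at 7.35 and 5.61 TPM in replicate 2 and between 27.9 and 54.5 TPM elsewhere. The summed level ranged from 2587 to 4048 TPM for 8 T cell markers, from 0.125 to 1.11 TPM for 6 B cell markers and from 0 to 14.9 TPM for 5 macrophage and monocyte markers. The summed level of 4 erythroid markers, nearly all of it Hba-a1, was 485 and 474 TPM in replicate 3 and 61.3 to 189 TPM elsewhere. The part of these differences in the results was not tested, and the counts of the members and of their roles are given with and without replicate 3.

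After cold acclimation, 12 of the 49 members were downregulated and 0 were upregulated. The downregulated members were Mis12, Knl1, Spc25 and Dsn1 of the outer kinetochore, Cenpu and Cenpi of the inner kinetochore, the checkpoint kinases Ttk and Bub1, the checkpoint recruiter Zw10, and Aurkb, Plk1 and Tpx2 among the mitotic kinases and their partners. Calls came from limma on log2(TPM + 1) in the 12227 genes whose mean TPM reached 1, and needed both an adjusted p (Benjamini-Hochberg) below 0.05 and a log2 fold change of 1 or more in either direction. The same rule called 16.0% of all tested genes downregulated and 2.63% upregulated, against 24.5% and 0% of the members. At an unadjusted p under 0.05, 31 members were lower, against 30% of all tested genes, and 1, Zwint, was higher, against 7.75%. The median log2 fold change was -1.39 over the members and -0.34 over all tested genes, and 47 of the 49 members had a negative value. With the replicate number as a block, 20 members were downregulated and 1, Zwint, was upregulated, against 21.9% and 3.75% of all tested genes.

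The replicates differed in how far the members moved. The median log2 difference between 26°C and 37°C was -1.87 in replicate 1, -2.53 in replicate 2 and -0.01 in replicate 3, where the medians of all tested genes were -0.32, -0.44 and -0.24. A log2 difference of -1 or lower was seen for 40, 43 and 3 members, against 26.5%, 30.8% and 15.3% of all tested genes. Any lower value was seen for 47, 48 and 25 members, against 64.1%, 67.6% and 64.2%. The difference lay mostly on the 26°C side, where the level in replicate 3 was above the mean of replicates 1 and 2 for 48 of the 49 members, with a median ratio of 3.53. At 37°C it was above that mean for 13 members, with a median ratio of 0.781. The median member was at 52.9, 54.2 and 48.6 TPM at 37°C and at 15.3, 9.01 and 42.3 TPM at 26°C in replicates 1 to 3. The conditions did not overlap for 22 members that were lower at 26°C, against 31.4% of all tested genes, and for 1 that was higher, against 9.69%. Without replicate 3, 42 members were downregulated and 1 was upregulated, against 25.3% and 5.34% of all tested genes. With median of ratios scaling as well, the counts were 34 and 1, against 15.6% and 11.5%. Without replicate 1, and likewise without replicate 2, limma called 0 members and 0 of all tested genes, and 7 and 9 members were lower at an unadjusted p under 0.05, against 16.4% and 15.1% of all tested genes. Leaving out a single 37°C library gave 1 (replicate 1), 1 (replicate 2) and 8 (replicate 3) downregulated members, against 4.31%, 2.82% and 14.9% of all tested genes. Leaving out a single 26°C library gave 1, 3 and 41, against 3.68%, 4.91% and 22.3%.

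**Figure D1:**
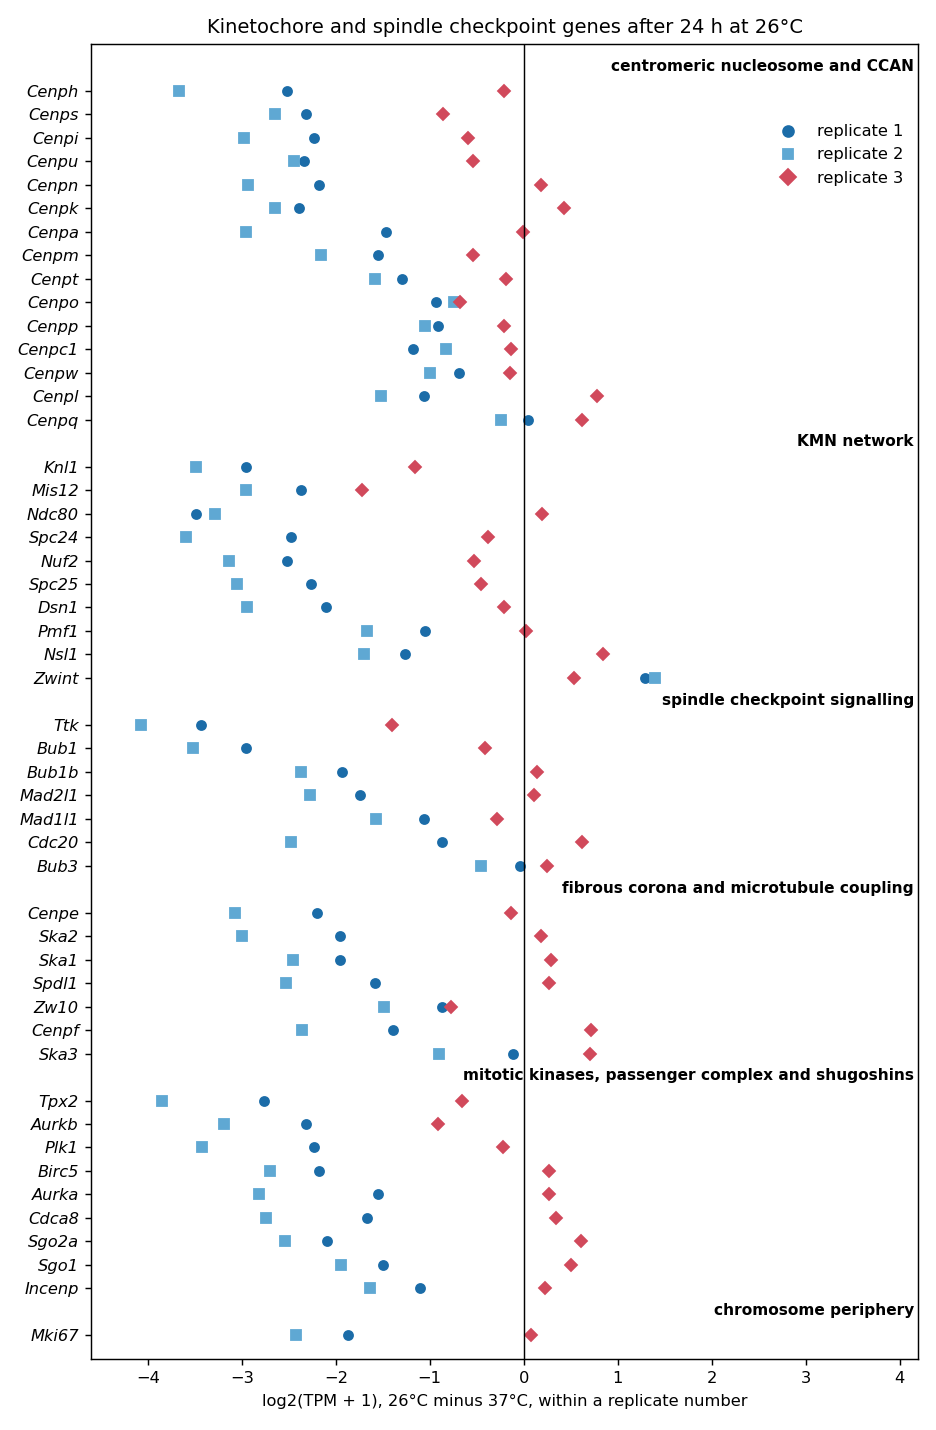
Difference between 26°C and 37°C on the log2(TPM + 1) scale within each replicate number, for the 49 members sorted by log2 fold change within each role. Replicates 1 (circles) and 2 (squares) lie below 0 for 47 and 48 members, whereas replicate 3 (diamonds) lies below 0 for 25.

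**Figure D2:**
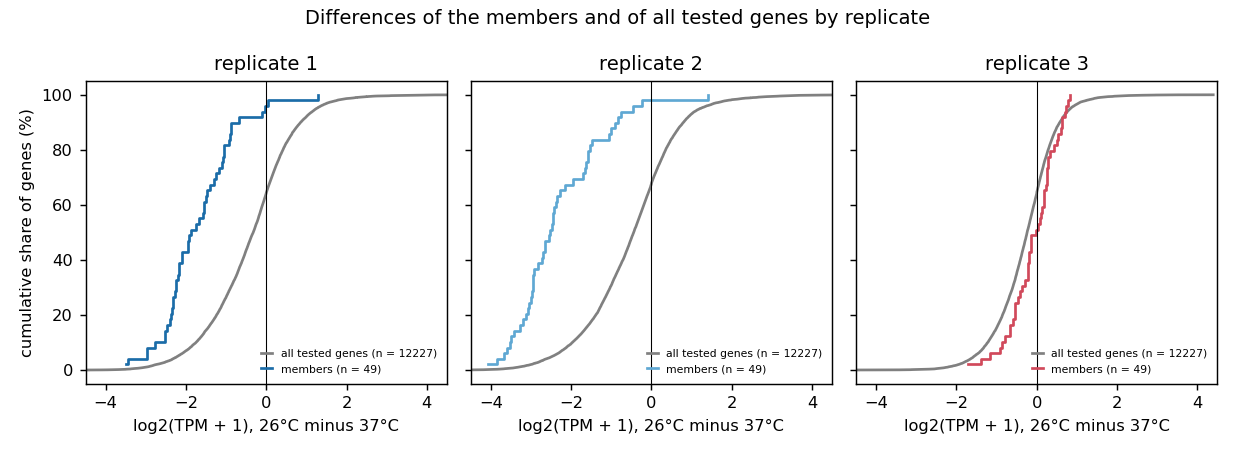
Cumulative share of genes (%) against the log2(TPM + 1) difference between 26°C and 37°C, for the 49 members (colored steps) and all 12227 tested genes (grey) in each replicate. The member curve lies to the left of the grey curve in replicates 1 and 2, with medians of -1.87 and -2.53. In replicate 3 it lies near the grey curve and to its right at the median, -0.01 against -0.24.

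In the KMN network, which forms the contact with microtubules, 4 of 10 members were downregulated, or 40% against 16.0% of all tested genes. Without replicate 3 the count was 9 of 10, or 90% against 25.3%. The median log2 fold change was -1.99. Mis12, a subunit of the complex that links inner and outer kinetochore, was at 40.6, 45.4 and 41.5 TPM at 37°C and at 7.07, 5.0 and 11.9 TPM at 26°C. Its libraries at 26°C were all far below those at 37°C, and replicate 3 shared the decrease. The log2 fold change was -2.35 ± 0.32 (SE, n = 3 per condition) with an adjusted p of 0.0074, and Mis12 was the only member called whichever single library was left out. Knl1, the scaffold that recruits the BUB proteins, was at 27.0, 26.1 and 15.2 TPM at 37°C and at 2.60, 1.41 and 6.25 TPM at 26°C. The conditions did not overlap, and the log2 fold change was -2.54 ± 0.45 with an adjusted p of 0.012. Spc25 of the NDC80 complex was at 73.5, 62.9 and 42.2 TPM at 37°C and at 14.5, 6.72 and 30.5 TPM at 26°C. Dsn1 of the MIS12 complex was at 44.3, 46.3 and 25.6 TPM at 37°C and at 9.52, 5.16 and 22.1 TPM at 26°C. Both had separate conditions with replicate 3 nearest to the border, with log2 fold changes of -1.92 ± 0.50 (adjusted p = 0.035) and -1.75 ± 0.49 (adjusted p = 0.044). Neither passed after median of ratios scaling (adjusted p = 0.061 and 0.077), and Dsn1 did not with limma voom (0.054).

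Zwint, which binds Knl1 and helps to recruit the corona, went the other way. It was at 94.8, 140 and 197 TPM at 37°C and at 233, 369 and 286 TPM at 26°C. Every library at 26°C was above every library at 37°C, and the level was higher in 3 of 3 replicates. The log2 fold change was 1.07 ± 0.32, with an adjusted p of 0.052 without the block and 0.015 with it. It passed both thresholds after median of ratios scaling (1.47, adjusted p = 0.024), where 7 members were downregulated and 1 upregulated against 8.79% and 6.56% of all tested genes. It also passed in limma voom on the recovered reads (1.21, adjusted p = 0.033), where the counts were 11 and 1 against 13.9% and 3.34%. Among the other KMN members, Nuf2, Ndc80 and Spc24, all of the NDC80 complex, were called with the block and without replicate 3. Their adjusted p-values were 0.0505, 0.058 and 0.070 in all 6 libraries without the block and 0.018, 0.045 and 0.025 with it, and Nuf2 also passed with limma voom (0.048). Their log2 fold changes were -2.06, -2.19 and -2.15.

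**Figure D3:**
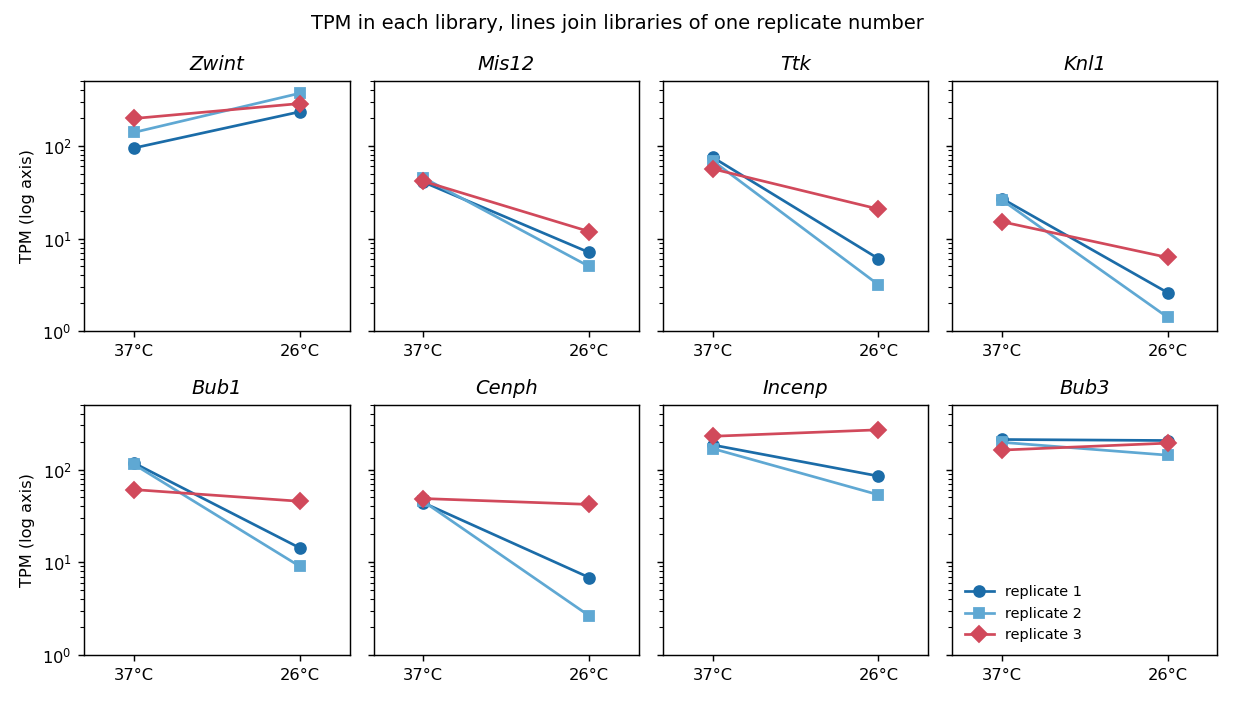
TPM on a log axis for 8 members named by rule, with the 37°C library on the left, the 26°C library on the right and a line for each replicate number. Zwint lines go up in all 3 replicates, those of Mis12, Ttk, Knl1, Bub1 and Cenph go down in all 3, and those of Incenp and Bub3 go down in replicates 1 and 2 and up in replicate 3.

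Of the 15 members of the centromeric nucleosome and CCAN, 2 were downregulated, a share of 13.3% against 16.0% of all tested genes. The count was 6 with the block, or 40% against 21.9%, and 11 without replicate 3, or 73.3% against 25.3%. The median log2 fold change was -1.42. Cenpu was at 22.4, 18.1 and 12.0 TPM at 37°C and at 3.62, 2.53 and 7.93 TPM at 26°C. Cenpi was at 38.7, 30.5 and 30.9 TPM at 37°C and at 7.44, 3.01 and 20.1 TPM at 26°C. Neither gene's conditions overlapped, and the log2 fold changes were -1.77 ± 0.41 (adjusted p = 0.024) and -1.93 ± 0.55 (adjusted p = 0.045). Cenpi did not pass after median of ratios scaling (adjusted p = 0.077). Cenph had the lowest log2 fold change of the group, -2.13 ± 0.79 with an adjusted p of 0.093, from levels of 43.8, 45.4 and 48.6 TPM at 37°C and 6.84, 2.64 and 42.0 TPM at 26°C. The first 2 libraries at 26°C were far below the others, and that of replicate 3 was just under the 37°C range. Cenpq had the highest, 0.14 ± 0.27 with an adjusted p of 0.74, from levels of 17.3, 22.0 and 12.6 TPM at 37°C and 17.8, 18.5 and 19.9 TPM at 26°C, and its conditions overlapped. The block added Cenph (adjusted p = 0.033), Cenpm (0.021), Cenps (0.011) and Cenpt (0.045). Cenpa, which encodes the centromeric histone itself, had a log2 fold change of -1.48 ± 0.52 with an adjusted p of 0.081.

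Among the 7 genes of spindle checkpoint signalling, 2 were downregulated, or 28.6% against 16.0% of all tested genes. Without replicate 3 the count was 6, or 85.7% against 25.3%. The median log2 fold change was -1.30. Ttk, which encodes the kinase MPS1 that starts checkpoint signalling, was at 75.4, 69.2 and 56.4 TPM at 37°C and at 6.06, 3.17 and 20.8 TPM at 26°C. This was the lowest log2 fold change of all 49 members, -2.97 ± 0.56 with an adjusted p of 0.015. Bub1, a kinase that docks on Knl1, was at 117, 114 and 60.7 TPM at 37°C and at 14.2, 9.01 and 45.4 TPM at 26°C, with a log2 fold change of -2.29 ± 0.56 and an adjusted p of 0.030. Both genes had separate conditions, with replicate 3 the highest library at 26°C. Bub3, the binding partner that carries Bub1 to the kinetochore, was at 211, 197 and 162 TPM at 37°C and at 206, 143 and 193 TPM at 26°C. Its conditions overlapped, and the log2 fold change was -0.08 with a 95% interval from -0.64 to 0.47, which turned positive (0.32) after median of ratios scaling. The log2 fold changes of Bub1b, Mad2l1, Mad1l1 and Cdc20 lay between -1.39 and -0.91, with adjusted p-values of 0.082 to 0.26.

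Of the 7 genes of the fibrous corona and microtubule coupling, 1 was downregulated, a share of 14.3% against 16.0% of all tested genes. Without replicate 3 the count was 6, or 85.7% against 25.3%. The median log2 fold change was -1.28. Zw10, a subunit of the RZZ complex that brings checkpoint proteins and dynein to the kinetochore, was at 37.9, 44.7 and 53.4 TPM at 37°C and at 20.3, 15.3 and 30.7 TPM at 26°C. The conditions did not overlap, and the log2 fold change was -1.04 ± 0.30 with an adjusted p of 0.048, close to both thresholds. Zw10 passed neither threshold after median of ratios scaling (-0.66, adjusted p = 0.12), and its adjusted p was 0.058 with limma voom. Cenpe, a kinesin that moves chromosomes to the spindle equator, was at 73.9, 74.6 and 52.2 TPM at 37°C and at 15.3, 8.02 and 47.4 TPM at 26°C. Its log2 fold change of -1.80 ± 0.57 was the lowest of the group, with an adjusted p of 0.059 without the block and 0.035 with it. Ska3, of the SKA complex that follows microtubule ends, was at 16.5, 19.1 and 17.0 TPM at 37°C and at 15.1, 9.77 and 28.3 TPM at 26°C. Its conditions overlapped, and the log2 fold change of -0.11 ± 0.37 (adjusted p = 0.87) turned positive (0.27) after median of ratios scaling.

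Among the 9 mitotic kinases, passenger complex members and shugoshins, 3 were downregulated, or 33.3% against 16.0% of all tested genes. Without replicate 3 all 9 were, or 100% against 25.3%. The median log2 fold change was -1.37. Aurkb, which encodes Aurora B, was at 201, 170.4 and 163 TPM at 37°C and at 39.4, 17.8 and 86.3 TPM at 26°C, with a log2 fold change of -2.14 ± 0.51 and an adjusted p of 0.027. Tpx2, which activates Aurora A on the spindle, was at 185, 186 and 128 TPM at 37°C and at 26.2, 11.9 and 80.9 TPM at 26°C, with a log2 fold change of -2.43 ± 0.61 and an adjusted p of 0.031. Plk1, a kinase that acts from mitotic entry to cytokinesis, was at 231, 311 and 177 TPM at 37°C and at 48.2, 28.2 and 151 TPM at 26°C, with a log2 fold change of -1.96 ± 0.57 and an adjusted p of 0.048, or 0.078 after median of ratios scaling. In all 3 genes every library at 26°C was below every library at 37°C, and replicate 3 had the smallest difference. Incenp, the scaffold of the passenger complex, was at 184, 168 and 228 TPM at 37°C and at 85.0, 53.4 and 268 TPM at 26°C. Replicate 3 was higher at 26°C, the conditions overlapped, and the log2 fold change was -0.84 ± 0.54 with an adjusted p of 0.30. Mki67, which encodes the Ki-67 protein that coats mitotic chromosomes and is a common marker of cycling cells, was at 230 (replicate 1), 235 and 163 TPM at 37°C and at 62.1, 43.1 and 173 TPM at 26°C. Only replicates 1 and 2 were lower, and the log2 fold change was -1.40 ± 0.49 with an adjusted p of 0.077.

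The 12 downregulated members were lower at 26°C in replicate 3 as well, by log2 differences of -0.21 to -1.72, whereas 13 of the other 37 were lower there. The calls rest on these same libraries, so this count only describes the called members. Their median differences were -2.33, -3.12 and -0.63 in replicates 1 to 3. Mis12 (-1.72), Ttk (-1.40) and Knl1 (-1.16) were the 3 members with a log2 difference of -1 or lower in replicate 3. Over the 49 members, Spearman's rho between the differences was 0.90 for replicates 1 and 2, 0.48 for replicates 1 and 3 and 0.41 for replicates 2 and 3. Over all tested genes the values were 0.84, 0.61 and 0.63. These correlations are across genes, which share libraries and are not independent replicates.

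Partner subunits were compared by the ratio of their TPM within a library. The pairs were chosen after their values were seen. The ratio of Zwint to Knl1 TPM within a library was 3.51, 5.35 and 13.0 at 37°C and 89.5, 262 and 45.8 at 26°C, so that the conditions did not overlap. The ratio of Nsl1 to Mis12, both of the MIS12 complex, was 0.759, 0.579 and 0.686 at 37°C and 1.74, 1.48 and 4.35 at 26°C. The ratio of Incenp to Aurkb was 0.918, 0.988 and 1.40 at 37°C and 2.16, 3.00 and 3.11 at 26°C. In these ratios, which do not depend on the scaling of the libraries, every value at 26°C was above every value at 37°C. The ratio of Bub3 to Bub1 was 1.80, 1.73 and 2.67 at 37°C and 14.4, 15.9 and 4.24 at 26°C. The ratio of Zw10 to its RZZ partner Kntc1 was 1.08, 1.42 and 1.37 at 37°C and 11.9, 17.2 and 1.88 at 26°C. Both again had separate conditions, with replicate 3 nearest to the 37°C values. The ratio of Zw10 to Zwilch, the third RZZ subunit, overlapped in replicate 3, with 1.22 in each condition. The two-sided exact permutation p was 0.1 for 5 of the 6 ratios, the smallest that 3 against 3 libraries allow, and 0.2 for Zw10 to Zwilch, or 0.12 and 0.20 after adjustment over the 6, so no ratio could pass 0.05.

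**Figure D4:**
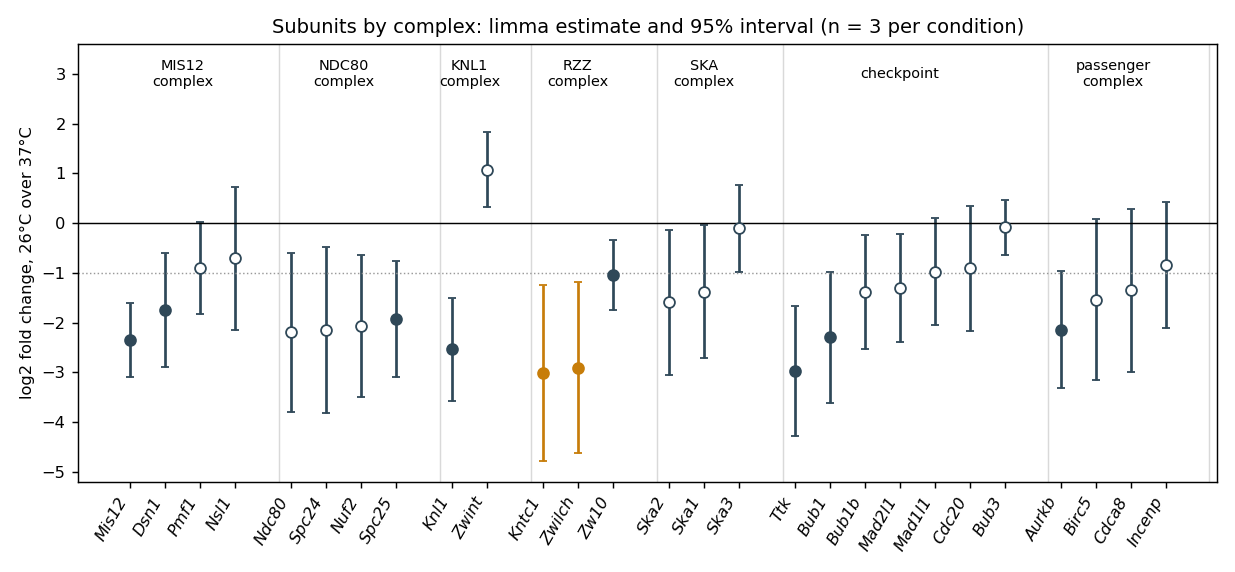
Log2 fold change at 26°C over 37°C with its 95% interval from limma (n = 3 per condition) for subunits grouped by complex. Filled points were downregulated, open points were not called, orange points are Kntc1 and Zwilch, which are not among the 49 members, and the dotted line marks -1; Zwint at 1.07 stands above 0 beside Knl1 at -2.54.

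Other genes of the same pathway were read from 5 lists, chosen with earlier results of these data known. Of their 53 genes, 14 were downregulated, or 26.4% against 16.0% of all tested genes. Without replicate 3 the count was 35, or 66.0% against 25.3%. In the main count 0 were upregulated, against 2.63%, and the median log2 fold change was -0.98. The shares downregulated by list, in the order below, were 25%, 27.3%, 33.3%, 0% and 21.4%, against the same 16.0%. For CENP-A deposition and other inner kinetochore genes the count was 2 of 8, with the smallest p-values for Oip5 (-2.36 ± 0.56, adjusted p = 0.026) and Mis18a (-1.50 ± 0.36, adjusted p = 0.028), subunits of the complex that prepares centromeres for new CENP-A. For other checkpoint and corona genes it was 3 of 11, led by Knstrn (-2.90 ± 0.57, adjusted p = 0.016), a spindle-associated partner of astrin, and by Kntc1 (-3.01 ± 0.76, adjusted p = 0.032). The count was 6 of 18 for the anaphase-promoting complex, the ubiquitin ligase that the checkpoint inhibits, listed together with its enzymes, its activator and its inhibitor. Among the 6, the smallest p-values were those of Fzr1, the late mitotic activator (-1.64 ± 0.27, adjusted p = 0.0097), and the subunit Cdc16 (-1.25 ± 0.25, adjusted p = 0.016), and 1 was the inhibitor gene Fbxo5 (-1.37 ± 0.40, adjusted p = 0.046), named after its value was seen. Neither the separase gene Espl1 (-1.79 ± 0.67, adjusted p = 0.095) nor the securin gene Pttg1 (-0.87 ± 0.56, adjusted p = 0.30) was called without the block, and Espl1 was with it (adjusted p = 0.036). For mitotic entry and mitotic gene transcription the count was 3 of 14, with Lin37, a subunit of the complex that binds the CHR (-1.37 ± 0.23, adjusted p = 0.011), and the phosphatase gene Cdc25b (-2.48 ± 0.47, adjusted p = 0.015) in front. In a list of 14 DNA replication genes, 2 were downregulated without the block and 9 with it, or 14.3% and 64.3%. The shares of all tested genes were 16.0% and 21.9%. The 2 were Gins4 (-1.61 ± 0.40, adjusted p = 0.030) and Gins3 (-1.74 ± 0.48, adjusted p = 0.041) of the replicative helicase. Leaving out replicate 3 gave 13 of the 14 replication genes, or 92.9% against 25.3% of all tested genes. Their median log2 fold change in the main fit was -1.42, close to the -1.39 over the kinetochore and checkpoint members, so the decrease was not particular to the members.

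Gene length, level and promoter letters were set beside the size of the difference as a description. Spearman's rho between log2 fold change and gene length was 0.18 over the 49 members and -0.15 over all tested genes, and that with the mean TPM at 37°C was -0.18 and 0.04. The median log2 fold change was -1.37 for the 23 members with a CHR in the full promoter window, of which 6 were called, and -1.54 for the 20 without, of which 4 were called. For the CCAAT box the medians were -1.40 with it (30 members, 7 called) and -1.30 without (13 members, 3 called). For the E2F letters they were -1.41 with them (14 members, 2 called) and -1.37 without (29 members, 8 called). Of all tested genes, 16.0% were called downregulated. In the GENCODE annotation of GRCm39, 29 members shared exon bases with another gene. The methods of the study name strand-specific libraries. The strand setting of the counting is not given in the sources used here, so reads of overlapping genes may not have been kept apart. The partner was a protein-coding gene on the opposite strand for 15 members, among them Ska3 with Sap18 (2962 shared bases), Spc25 with Nostrin (3693) and Mis12 with Derl2 (394). Shared bases were counted over all GENCODE exons, which need not be those behind the TPM. The gene length behind the TPM of Spc25 was 2181 bases, so these sizes do not measure mixed reads. Dsn1 shared 720 bases with a processed pseudogene on its own strand, and its value is uncertain for that reason. The median member was covered by 344 to 1986 reads in the 6 libraries, and the fewest reads, 11, were those of Cenps in cold-acclimated replicate 1.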

How the data were processed

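RNA sequencing was analysed for 3 cold-acclimated and 3 non-acclimated libraries of D10 T cells. The authors deposited TPM values per gene, and each library summed to the same total. The submitters' processing notes name FastQC 0.11.7, Trimmomatic 0.38, HISAT2 2.1.0, featureCounts 1.6.3 and GRCm39. The annotation release, the strand setting and the way TPM was computed are not stated. The labels and the methods name different culture media.

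From these values, limma 3.58.1 in R 4.3.3 was run with a mean-variance trend on log2(TPM + 1), and p-values were adjusted over 12227 genes. Fold changes are on this scale and understate those of low genes. Read numbers were derived from the steps between the TPM values of a gene, whole within 1e-06 reads for 100% of 21195 genes, and served for depth and for limma voom. Precision rests on 3 libraries per condition. Other values came from Python 3.11.15 with numpy 2.4.6, pandas 2.3.3 and scipy 1.17.1, drawn with matplotlib 3.10.9. The procedure was tested on simulated data, where 200 of 200 genes changed 4-fold and 8 others were called among 12198 genes. The simulated libraries shared 1 expression profile and had no differences between replicate numbers, unlike the real ones. That test therefore checks only that the procedure runs as meant, and does not measure power or error in these data.

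The replicate numbers were checked as pairs. Deviations from the condition means correlated at 0.48, 0.50 and 0.51 between libraries of the same number and at -0.41 to 0.02 between other numbers, so the numbers pair the libraries, as read from the data, and a fit with the replicate block was run. Unless the block is named, SE and adjusted p are from fits without it, and so include the spread between pairs. The permutation p of the ratios did not use the pairs either. Values in every library are given for each called member and for the highest and lowest log2 fold change of each role, and from the other lists the 2 genes with the smallest p were named. Genes named beyond this rule, among them Nuf2, Ndc80, Spc24, Cenpa, Cenpm, Cenps, Cenpt, Bub1b, Mad2l1, Mad1l1, Cdc20, Nsl1 and Zwilch, were chosen after their values were seen. The members and lists were chosen with earlier results of these data known. Promoters came from RefSeq (GRCm38.p6). Nsl1, Spc24, Tpx2, Aurkb, Incenp and Ska1 were not matched there.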

Additional observations from a re-analysis of the deposited data

How the results depend on the processing

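The median log2 fold change of the members relative to that of all tested genes, -1.05, stayed negative under the 17 alternatives, between -1.83 without replicate 3 and -0.54 without replicate 2. Each alternative kept replicate 1 or replicate 2, so the sign was not probed without both. In replicate 3 alone the median log2 difference was -0.01 over the members, above the -0.24 over all tested genes. The number of downregulated members, 12, depended on the setting. It was 20 with the replicate block, 7 after median of ratios scaling, which moved the median of all tested genes from -0.34 to 0.02, 10 with a pseudocount of 0.1, 3 with no filter on low values, 13 with a mean TPM of at least 5, 13 with the block and median of ratios scaling together and 11 with limma voom. It ranged from 1 to 41 when 1 library was left out and from 0 to 42 when both libraries of a replicate number were. With median of ratios scaling and without replicate 3, an alternative chosen after seeing the data, it was 34. For the pseudocount of 0.1, the filter settings and the block with scaling together, shares of all tested genes are not given here. Those counts show only the dependence on the setting, not whether the members exceed all tested genes. The upregulated member, 0 in the main count, was 1, Zwint, with the block, after median of ratios scaling, under both together, with voom, without non-acclimated replicate 3, without replicate 3, and without replicate 3 after median of ratios scaling, and ranged from 0 to 1 over the left-out libraries. The 14 downregulated genes of the 5 other mitotic lists became 21 with the block, 8 after median of ratios scaling, 6 with no filter, 24 with that scaling and without replicate 3, between 0 and 34 with 1 library left out and between 0 and 35 with a replicate number left out. Of the 53 genes, these counts were 39.6% with the block, 15.1% after scaling and 45.3% with scaling and without replicate 3. The shares of all tested genes were 21.9%, 8.79% and 15.6%, and none is given here for the setting with no filter. The cause of the differences between settings was not tested. Apart from the members named with their block values, the block changed no member's call.

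The sign changed for 3 uncalled members. Bub3 was at 0.32 after median of ratios scaling with or without the block, 0.047 with voom, 0.08 without cold-acclimated replicate 2, between -0.25 and 0.11 with a replicate number left out and 0.21 without replicate 3 after median of ratios scaling. Ska3 was at 0.27 after median of ratios scaling with or without the block, 0.029 with voom, 0.23 without cold-acclimated replicate 2 and between -0.51 and 0.29 with a replicate number left out. Cenpq was at -0.06 without non-acclimated replicate 3 and between -0.10 and 0.33 with a replicate number left out. The members had between 11 and 20111 reads in a library, and the part of read depth in the calls was not tested.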
